A study of Mus musculus with 24 samples.

Results

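Transcripts that mark T cells, B cells and natural killer (NK) cells were followed in the livers of mice with and without fat-cell lamin A/C, 9 genes of the 23972 in the count table. They were Cd3e, Cd3g and Cd8a for T cells, Cd79a, Ms4a1 and Ighm for B cells, and Nkg7, Gzma and Klrb1c for NK and other cytotoxic cells. The genes were taken by name, but were chosen by their levels and fold changes across these same 4 groups, with earlier results known, so their values are given below as a description with standard errors and without a p of their own. Liver RNA came from 24 female mice housed at 22°C, which were 12 to 14 weeks old at the start, ate a diet with 60% of its energy from fat from 4 weeks before an injection, and were killed 8 weeks after it. All carried Lmna alleles with loxP sites around exons 10 and 11. The label Lmna.WT marks mice without Cre, called controls here, and Lmna.KO marks mice with Adipoq-Cre, called Lmna ADKO mice, in which the adiponectin promoter drives recombination in fat cells and fat tissue is lost. Vehicle was buffered saline with a surfactant, and the other treatment, labelled Rescue, was read from the study's methods as an adeno-associated vector of serotype AAV8 that carries mouse FGF21. The groups held 7 vehicle-treated controls, 3 FGF21-treated controls, 6 vehicle-treated Lmna ADKO mice and 8 FGF21-treated Lmna ADKO mice, and libraries are numbered within each group by animal number. Each library is a separate animal by its label.

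The libraries held 19863304 to 21510054 counts each. Lmna is removed in fat cells and not in liver cells, so its liver level in CPM, the counts scaled to TMM-normalized library size, does not check the genotype labels, and its mean with vehicle was 26.7 ± 2.57 CPM (SD, n = 6) in Lmna ADKO mice beside 18.6 ± 2.47 CPM (n = 7) in controls. Fgf21 did not check the treatment labels either, since its mean in Lmna ADKO mice was 5.36 ± 2.41 CPM (n = 8) with FGF21 and 7.99 ± 2.48 CPM (n = 6) with vehicle. The tissue label was borne out, as 10 hepatocyte genes led by Alb, the gene of albumin, summed to between 75510 and 153933 CPM in all groups. Control vehicle library 3, control FGF21 library 3 and Lmna ADKO FGF21 library 7 stood apart from the others, with a slope of log2 CPM, relative to the median of their genotype, of -0.154, -0.289 and -0.331 per doubling of exonic length. Calls were repeated without these 3 libraries.

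Lymphocytes of the liver reside in the sinusoids and portal tracts, beside Kupffer cells, and mouse liver is known for its NK cells, NKT cells and CD8 T cells. T cells read antigen through a receptor that signals through the CD3 chains, B cells read it through surface immunoglobulin that signals through CD79, and cytotoxic cells kill with perforin and granzymes stored in granules. In a bulk sample of liver, fewer cells of a type and less RNA per cell cannot be told apart.

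The levels of Nkg7 and Gzma varied together from liver to liver, as shown further on, so the RefSeq sequence upstream of these genes and of Klrb1c, the other NK marker, is printed here. Each is taken from the 250 bases before the RefSeq start on the gene's own strand (build GRCm38.p6), without the last 65 bases for Nkg7, which lie in the first exon of a longer GENCODE transcript. Capitals mark a T-box motif, AGGTGTGA, or a RUNX motif, TGTGGT, on either strand.
Nkg7: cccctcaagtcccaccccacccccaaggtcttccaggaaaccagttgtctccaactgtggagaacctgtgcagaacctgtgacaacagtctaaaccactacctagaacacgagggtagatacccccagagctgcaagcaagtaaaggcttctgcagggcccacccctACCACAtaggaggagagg
Gzma: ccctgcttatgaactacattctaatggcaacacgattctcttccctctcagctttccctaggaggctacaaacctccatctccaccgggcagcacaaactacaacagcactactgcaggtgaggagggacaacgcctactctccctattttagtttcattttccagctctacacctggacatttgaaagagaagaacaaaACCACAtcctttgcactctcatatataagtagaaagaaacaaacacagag
Klrb1c: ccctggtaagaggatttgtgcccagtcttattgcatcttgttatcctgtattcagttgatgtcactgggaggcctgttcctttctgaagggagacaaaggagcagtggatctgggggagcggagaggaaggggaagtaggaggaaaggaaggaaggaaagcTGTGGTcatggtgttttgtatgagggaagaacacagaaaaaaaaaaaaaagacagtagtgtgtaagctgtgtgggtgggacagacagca
The Nkg7 sequence is at chr7:43436888-43437072 on the plus strand, that of Gzma at chr13:113100982-113101231 on the minus strand, and that of Klrb1c at chr6:128788642-128788891 on the minus strand, where all but 5 bases lie in an intron of a longer GENCODE transcript. The T-box motif stood once upstream of Nkg7, in the 65 bases not printed, and 1.12% of the 32851 RefSeq promoters held it within the same 250 bases. The RUNX motif stood upstream of all 3 genes and in 14% of promoters. Among the 5 motifs searched on both strands, the only overlapping matches were 2 of the ETS motif upstream of Klrb1c. Of the 9 markers, 7 had a promoter sequence, and the other 4 sequences held neither motif. The ETS motif AGGAAG was upstream of Cd3e, Cd79a, Nkg7 and Klrb1c and in 29.5% of promoters, whereas the E-box CAGCTG, in 13%, and the octamer ATGCAAAT, in 1.6%, were upstream of none of the 7. These letters are a description of the sequence and not of binding.

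In GRCm38, Cd3e (ENSMUSG00000032093) lies at chr9:44998740-45009627 and Cd3g (ENSMUSG00000002033) beside it at chr9:44969572-44980431, both on the minus strand, and Cd8a (ENSMUSG00000053977) at chr6:71373427-71379173. Cd79a (ENSMUSG00000003379) lies at chr7:24897381-24902197, Ms4a1 (ENSMUSG00000024673) at chr19:11249675-11266241 and Ighm (ENSMUSG00000076617) at chr12:113418558-113422730. Nkg7 (ENSMUSG00000004612) lies at chr7:43437073-43438249, Gzma (ENSMUSG00000023132) at chr13:113093825-113100981 and Klrb1c (ENSMUSG00000030325), whose family shares sequence, at chr6:128778485-128789215. All 9 markers were rare transcripts in liver. Apart from Ighm, with 155 to 1551 counts per library, the markers had between 3 and 84 counts per library, where 3 counts correspond to 0.124 to 0.176 CPM. Per kilobase of exon in vehicle-treated controls, the mean level was highest for Ighm, the constant region of the IgM heavy chain, at 6.04 ± 1.18 CPM per kb (SD, n = 7). Nkg7, which encodes a membrane protein of cytotoxic granules, followed at 2.19 ± 0.612, Cd79a, the signaling chain of the B cell receptor, at 1.55 ± 0.471, and Gzma, which encodes granzyme A, at 1.4 ± 0.629 CPM per kb. Cd79a and Gzma differed by less than their SD, and Nkg7 overlapped both in range. Cd8a, the CD8 coreceptor of cytotoxic T cells, had 0.444 ± 0.264 CPM per kb, Cd3g 0.392 ± 0.0725, Cd3e 0.268 ± 0.0839, and Klrb1c, a receptor of NK cells, 0.267 ± 0.105. Ms4a1, which encodes the B cell surface protein CD20, was lowest at 0.114 ± 0.0269 CPM per kb. For scale, Alb had 36800 ± 6930 CPM per kb and Clec4f, a Kupffer cell receptor, 90.7 ± 16.5.

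**Figure D1:**
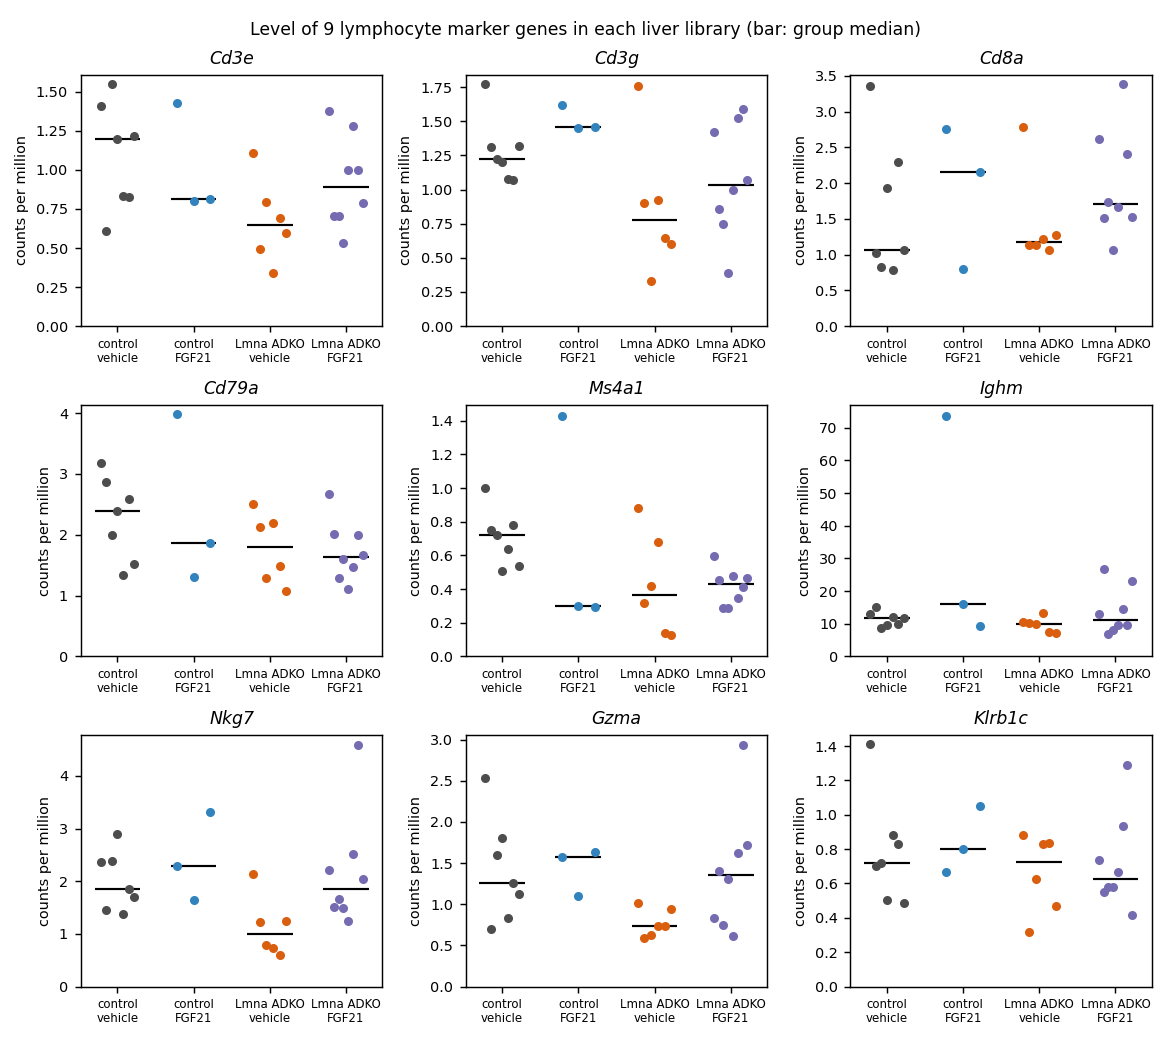
Level of the 9 markers in CPM on linear axes, 1 point per liver in order of library number, with a bar at each group's median. In vehicle-treated Lmna ADKO livers, 5 of 6 libraries lie below every control for Nkg7, and Lmna ADKO library 1 is the highest of its group for 8 of 9 markers.

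The first comparison asked how the livers of lipodystrophic mice differed from those of controls when both received vehicle. The markers of all 3 lineages were lower on average in Lmna ADKO livers, with log2 fold changes from -0.86 for Gzma to -0.18 for Cd8a and a median of -0.58, while the median over all genes was 0. A gene was called when edgeR's quasi-likelihood test gave an adjusted p under 0.05 and the fold change exceeded 1.5. By this rule 0 of the 9 were called, against 8.48% of all genes, of which 5.12% were called higher and 3.36% lower. The 95% interval lay below 0 for Cd3e, Nkg7 and Gzma. DESeq2 called 2 of the 9, Nkg7 and Gzma, and its share over all genes is not given here. Because the markers were chosen by these same fold changes, the intervals and calls are a description and not a test of them. Below 0 were 48% of all genes and 50.2% of the 7947 genes whose mean log2 CPM was between -1 and 4, a range that holds all 9 markers.

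The cytotoxic granule genes had the largest differences. Nkg7 ran from 1.38 CPM over a median of 1.85 to 2.9 in vehicle-treated controls (n = 7), and from 0.602 over 1 to 2.13 in vehicle-treated Lmna ADKO livers (n = 6). The single Lmna ADKO library inside the control range was library 1, and the other 5 lay below all controls. The log2 fold change of Nkg7 was -0.84 ± 0.297 (SE), which is 0.56 of the control level. Gzma ran from 0.703 over 1.26 to 2.54 CPM in controls and from 0.586 over 0.735 to 1.02 CPM in Lmna ADKO livers. Every one of the 6 Lmna ADKO values was under the control median and 2 were under every control, and the log2 fold change was -0.86 ± 0.316. Klrb1c overlapped broadly, with medians of 0.719 CPM in controls and 0.727 in Lmna ADKO livers and a log2 fold change of -0.27 ± 0.287.

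Among the T cell markers, the CD3 chains, which signal for the T cell receptor, had larger differences than Cd8a. Cd3e ran from 0.609 over 1.2 to 1.55 CPM in controls and from 0.341 over 0.646 to 1.11 in Lmna ADKO livers. All 6 Lmna ADKO values fell below the control median and 3 below every control, and the log2 fold change was -0.69 ± 0.276. For Cd3g, the values were 1.07, 1.22 and 1.77 CPM in controls and 0.334, 0.775 and 1.76 CPM in Lmna ADKO livers, as lowest, median and highest, with 5 of 6 below every control and a log2 fold change of -0.58 ± 0.291. Cd8a spread widely in controls, from 0.787 over 1.07 to 3.36 CPM, and Lmna ADKO livers spanned 1.06 to 2.78 CPM around 1.17. Only 1 Lmna ADKO library was below the control median of Cd8a, and the log2 fold change was -0.18 ± 0.348, which became 0.11 without control library 1 and -0.48 without Lmna ADKO library 1.

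For all 3 B cell markers the 95% interval included 0. Cd79a ran from 1.33 over 2.39 to 3.18 CPM in controls and from 1.07 over 1.8 to 2.5 CPM in Lmna ADKO livers, which gave a log2 fold change of -0.36 ± 0.257. Ms4a1 was at 0.506, 0.719 and 0.998 CPM in controls and at 0.128, 0.366 and 0.88 CPM in Lmna ADKO livers, as lowest, median and highest, giving a log2 fold change of -0.72 ± 0.382 at 3 to 22 counts per library. Ighm was close in the 2 groups, at 8.57 to 15 CPM around 11.6 and at 7.05 to 13.4 CPM around 9.98, with a log2 fold change of -0.23 ± 0.389.

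The size of the differences depended on Lmna ADKO vehicle library 1, which was the highest of its group for 8 of 9 markers, all but Ighm. Without it, the log2 fold change was -0.89 ± 0.285 for Cd3e, -0.91 ± 0.28 for Cd3g and -1.12 ± 0.296 for Nkg7. These 3 were called, and Gzma was at -0.96 ± 0.339 and not called. This was the largest number of marker calls when 1 library was left out. Leaving out control library 2 or 5 gave 2 calls, and leaving out any other library gave 0. The share of all genes called in these fits is not given here. Lmna ADKO vehicle library 1 is also the only one of its group whose animal number has 3 digits, whereas the numbers of 6 of the 7 vehicle-treated controls do. What the number series stands for is not given in the sources used here. The control with 4 digits, library 7, held 1.71 CPM of Nkg7, 1.12 of Gzma, 1.22 of Cd3e and 1.32 of Cd3g, each above the 5 Lmna ADKO livers with 4 digits, which reached 1.24, 0.94, 0.793 and 0.925 CPM. Its 1.07 CPM of Cd8a and 0.487 CPM of Klrb1c, the lowest of the controls, lay within these 5 livers, which held 1.06 to 1.28 and 0.315 to 0.833 CPM. The 3 B cell markers of library 7 lay within them too, Cd79a at 1.51 beside 1.07 to 2.19 CPM. Ms4a1 was at 0.536 beside 0.128 to 0.682 CPM, and Ighm at 11.6 beside 7.05 to 13.4 CPM. A fit of the 13 libraries with 4 digits was added after the data were seen, and in it the lone control is assumed to vary like the other groups. It gave -0.88 ± 0.553 for Nkg7, -0.62 ± 0.562 for Gzma, -1.04 ± 0.464 for Cd3e and -0.94 ± 0.457 for Cd3g, with 6 of 9 markers below 0, while Cd8a, Cd79a and Klrb1c were at 0.12 ± 0.548, 0.11 ± 0.536 and 0.33 ± 0.642. With the number of digits as a covariate, the 9 log2 fold changes remained below 0, at -0.81 ± 0.345 for Nkg7, -0.99 ± 0.377 for Gzma and -0.67 ± 0.32 for Cd3e, while Cd8a and Cd79a were at -0.02 ± 0.402 and -0.05 ± 0.294. In FGF21-treated Lmna ADKO livers, where 4 animals had each kind of number, 8 of 9 markers had the higher median in the animals with 4 digits.

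**Figure D2:**
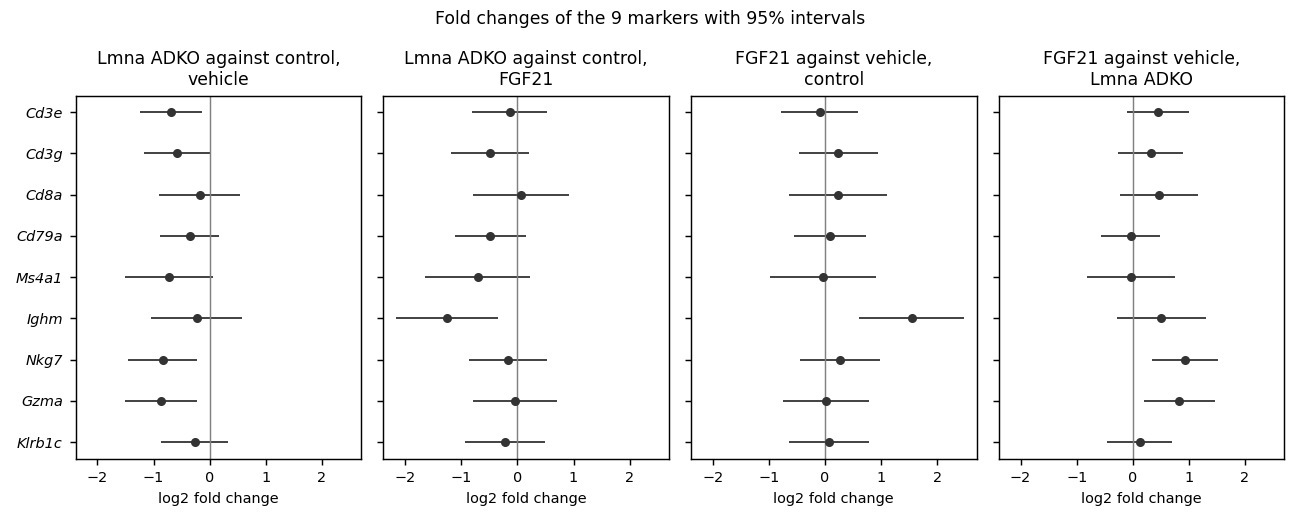
Log2 fold changes of the 9 markers (points) with 95% intervals (lines) from the fit of all 4 groups, in 4 comparisons, with 0 as a vertical line. With vehicle all 9 points lie below 0, from -0.86 to -0.18, and with FGF21 the point of Ighm lies lowest at -1.25.

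Other genes of the same cells were taken from lists of 30 T cell, 25 B cell, 9 plasma cell and 38 NK or cytotoxic genes. All lists used here and below were written with earlier results of these data known, so their shares of called genes are a description. Of these 102 genes, 7 were called lower and 2 higher in vehicle-treated Lmna ADKO livers, 8.82% beside 8.48% of all genes, and the median log2 fold change was -0.34 with 75 of 102 below 0. At an unadjusted p under 0.05 in edgeR were 26 of the 102, beside 6481 of all 23972 genes. DESeq2 called 11 of the 102, and its share over all genes is not given here. In the T cell list, 1 of 30 was called, 3.33% beside 8.48% of all genes. It was Zap70, the kinase that binds the activated T cell receptor. Zap70 ran from 7.49 over 17.9 to 24.6 CPM in controls and from 3.8 over 8.16 to 9.4 CPM in Lmna ADKO livers, and it fell by 1.04 ± 0.264 on the log2 scale (edgeR adjusted p = 0.0085). Its level per length, 5.26 ± 2 CPM per kb in vehicle-treated controls, was far above the 0.268 of Cd3e, and the level of Zap70 did not follow that of Cd3e from liver to liver (r = 0.17, rho = 0.1, adjusted permutation p = 0.56 and 0.801, n = 24). Trac, the T cell receptor alpha constant region, had a log2 fold change of -0.28 ± 0.277, Cd4, the helper T cell coreceptor, -0.02 ± 0.258, and Cd8b1, the partner of Cd8a in the CD8 dimer, 0.56 ± 0.424 (edgeR adjusted p = 0.562, 0.989 and 0.437).

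In the B cell list, 2 of 25 genes were called, both lower, 8% beside 8.48% of all genes. Iglc2, a lambda light-chain constant region, fell by 0.72 ± 0.244 on the log2 scale (edgeR adjusted p = 0.0449), from 0.921 ± 0.232 to 0.562 ± 0.194 CPM, and because lambda constant genes are near copies of each other, reads may have been split between them. Blk, a kinase of the B cell receptor pathway, was the other, at -1.05 ± 0.35 (adjusted p = 0.0395) with 2 to 20 counts per library, and it is named because it completes the count. Cd79b, the partner of Cd79a, was at -0.34 ± 0.219 (adjusted p = 0.332). Of 9 plasma cell genes, 0 were called, 0 had an unadjusted p under 0.05, and Igha, the IgA heavy chain and the highest of the list, was at -0.53 ± 0.384 (adjusted p = 0.415).

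In the NK and cytotoxic list, 4 of 38 were called lower and 2 higher, 15.8% beside 8.48% of all genes. Ctsw, which encodes cathepsin W of NK and CD8 T cells, ran from 1.17 over 1.64 to 2.68 CPM in controls and from 0.721 over 0.81 to 0.925 CPM in Lmna ADKO livers. These ranges did not overlap, and Ctsw fell by 1.07 ± 0.239 on the log2 scale (edgeR adjusted p = 0.00233). Cd160, a receptor of NK cells and intraepithelial T cells, fell by 1.08 ± 0.349 (adjusted p = 0.0347). Ctsw overlaps Fibp and Cd160 overlaps Pdzk1 on the opposite strand, each far more abundant, and whether the counting used the strand is not given in the sources used here. The other called genes were below the level set for naming and complete the count. Txk, a kinase of T and NK cells, fell by 1.5 ± 0.432 and Tbx21, which encodes the T-box factor T-bet, by 0.91 ± 0.315 (adjusted p = 0.0173 and 0.0475), while Itga2, an integrin of NK cells and platelets, rose by 1.57 ± 0.454 and Klrg1, a receptor of mature NK and effector T cells, by 1.98 ± 0.631 (adjusted p = 0.0176 and 0.0315). Klrg1 had 0 to 6 counts per library. Prf1, the gene of perforin, had a log2 fold change of -0.95 ± 0.395, Ncr1, the NK receptor NKp46, -1.21 ± 0.479 and Ccl5, a chemokine of cytotoxic cells, -0.16 ± 0.37 (adjusted p = 0.113, 0.0914 and 0.849).

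Genes that guide lymphocytes into and through tissue formed a list of their own, also written with earlier results of these data known. Of its 21 chemokines, receptors and adhesion genes, 5 were called lower and 1 higher with vehicle, 28.6% beside 8.48% of all genes. S1pr5, the sphingosine-1-phosphate receptor through which NK cells leave tissue, ran from 4.83 over 6.54 to 10.4 CPM in controls and from 1.27 over 2.16 to 6.58 CPM in Lmna ADKO livers, and it fell by 1.41 ± 0.294 on the log2 scale (edgeR adjusted p = 0.00159). The overlap rested on the highest Lmna ADKO library. Per kilobase of exon in vehicle-treated controls, S1pr5 had 2.96 CPM, beside 0.267 for Klrb1c, 0.15 for Ncr1 and 2.19 for Nkg7. Which cells gave the S1pr5 counts was not tested. Cxcr6, a receptor of liver-resident T, NK and NKT cells, fell by 1.13 ± 0.266, from 1.7 ± 0.631 to 0.775 ± 0.178 CPM (adjusted p = 0.00354), and lies within Fyco1 on the opposite strand. S1pr1, a receptor of lymphocytes and endothelial cells, fell by 0.83 ± 0.165 without overlap, from 33.1 to 48.8 CPM in controls to 17.3 to 30.2 CPM in Lmna ADKO livers (adjusted p = 0.000878). The interferon-induced chemokine gene Cxcl11, which overlaps Art3 on the opposite strand, fell by 0.86 ± 0.215 (adjusted p = 0.0061), and Cxcl12, the ligand of CXCR4 and the most abundant gene of the list, fell by 0.61 ± 0.136 (adjusted p = 0.00219). Vcam1, an adhesion molecule of activated endothelium and Kupffer cells, rose by 0.74 ± 0.153 (adjusted p = 0.00124). Cxcl9, another interferon-induced chemokine, was at 0.26 ± 0.289, and Cxcl13, the B cell chemokine, at -0.95 ± 0.735 (adjusted p = 0.612 and 0.455).

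Of 19 lymphocyte cytokines and their receptors, 1 was called, 5.26% beside 8.48% of all genes. Ltb, which encodes lymphotoxin beta of lymphocytes, fell by 1.09 ± 0.231 on the log2 scale (edgeR adjusted p = 0.0014), from 1.52 to 2.54 CPM around 2.21 in controls to 0.47 to 1.57 CPM around 0.953 in Lmna ADKO livers. Ltbr, its receptor on stromal cells and hepatocytes, was at 0.12 ± 0.0898. The survival cytokines Il7 and Il15 and the B cell factor Tnfsf13b were at 0.69 ± 0.337, -0.44 ± 0.226 and 0.47 ± 0.303 (adjusted p = 0.187, 0.211 and 0.333). Leukocytes as a whole gave 0 calls of 10 by edgeR, with 0 at an unadjusted p under 0.05. Ptprc, the common leukocyte antigen CD45, had a log2 fold change of 0.07 ± 0.148 and Laptm5, a lysosomal protein of blood cells, 0.05 ± 0.109 (adjusted p = 0.81 and 0.812).

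**Figure D3:**
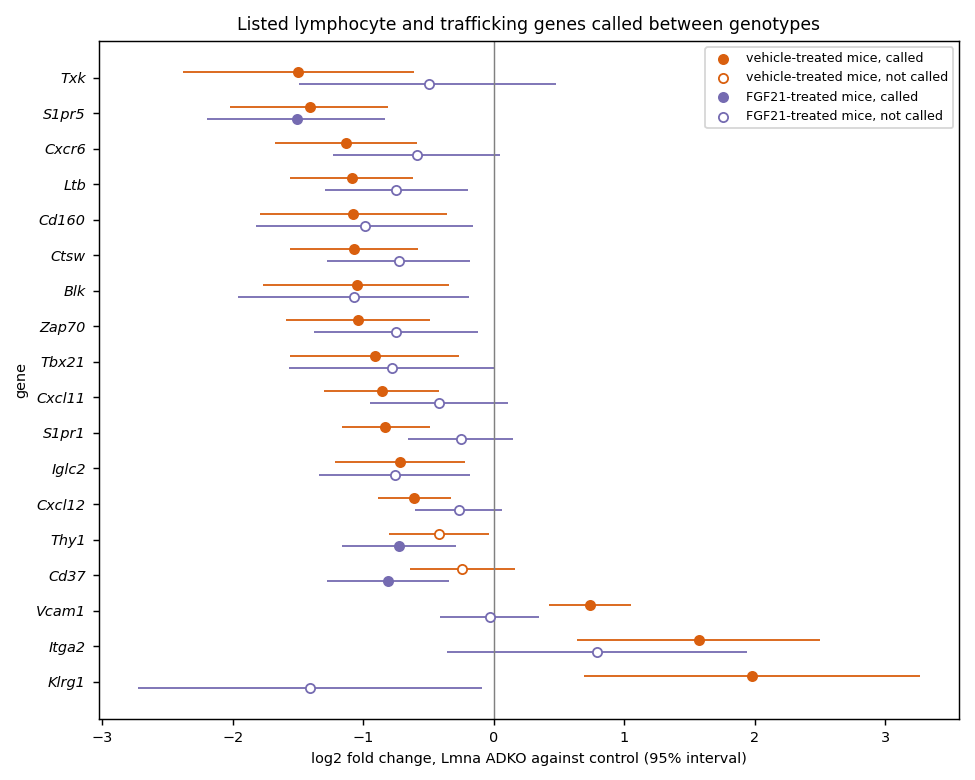
Log2 fold changes of Lmna ADKO against control (points) with 95% intervals (lines) for the listed lymphocyte and trafficking genes called with vehicle or with FGF21, filled where called and open where not. S1pr5 is called with both treatments, at -1.41 and -1.51.

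The calls differed in how far they rested on single libraries. Zap70, Ctsw, S1pr5, Cxcr6, S1pr1, Cxcl11, Ltb and Vcam1 were called in all 21 alternatives, 13 of which left out 1 library. Another of the alternatives kept the main fit and dropped the fold threshold, which cannot end a call, so it adds no support to these counts. Txk was called in 19 of 20, with its call lost to the digits covariate (edgeR adjusted p = 0.116). Itga2 lost its call without Lmna ADKO library 3 (adjusted p = 0.0904). Blk was called in 13 of 21 and lost its call without control library 1, 4, 5 or 6 or Lmna ADKO library 3, 4 or 5 (adjusted p from 0.0563 to 0.108), and with the digits covariate it was at -0.39 (adjusted p = 0.618). Cd160, also called in 13, lost it without control library 1, 3 or 6 or Lmna ADKO library 2, 4, 5 or 6 (adjusted p from 0.0524 to 0.113), and to the digits covariate (0.0722). Iglc2 was called in 10 of 21 and kept its call without control library 2 or 7 or Lmna ADKO library 4 or 5, with an adjusted p from 0.0515 to 0.118 without any other, of 0.0635 when only the groups compared were fitted and of 0.22 with the digits covariate. Tbx21 was called in 8 of 21 and kept its call without control library 3 or 4, with an adjusted p from 0.0517 to 0.131 without any other, of 0.0509 when only the groups compared were fitted and of 0.225 with the digits covariate. Klrg1, called in 12 of 20, lost its call without control library 4, 5 or 7 or Lmna ADKO library 1, 3 or 6 (adjusted p from 0.0515 to 0.11), in DESeq2 (0.061) and with the digits covariate (edgeR, 0.177). Cxcl12 fell under the fold threshold, at log2 fold changes of -0.58 to -0.56, without control library 1 or 6 or Lmna ADKO library 3 or 5 and with the digits covariate. With the digits covariate, 3 of the 102 lymphocyte genes were called in place of 9. The share of all genes called in that fit is not given here, so the lower number is not a result about lymphocyte genes. In the added fit of the 13 libraries with 4 digits, edgeR called 0 of the 102, with 6 at an unadjusted p under 0.05, beside 0.488% of all genes. There S1pr1 was at -1.06 ± 0.282, Cxcl11 at -1.43 ± 0.384, Zap70 at -1.21 ± 0.361, Ltb at -1.04 ± 0.433, Vcam1 at 0.65 ± 0.273, S1pr5 at -1.4 ± 0.601, Cxcr6 at -0.66 ± 0.516 and Ctsw at -0.51 ± 0.515 (edgeR adjusted p = 0.123, 0.124, 0.202, 0.475, 0.485, 0.514, 0.885 and 0.909).

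The second comparison set the genotypes side by side when both received FGF21. Of the 9 markers, 8 had log2 fold changes below 0, with a median of -0.22, and 0 were called, beside 2.88% of all genes, 1.61% higher and 1.26% lower. DESeq2 called 1, Ighm, and its share over all genes is not given here. In this comparison, control FGF21 library 1 was the highest of all 24 libraries for the 3 B cell markers. Ighm was at 73.7, 16.1 and 9.14 CPM in the 3 control libraries and ran from 6.88 over 11.2 to 26.7 CPM in Lmna ADKO livers (n = 8), giving a log2 fold change of -1.25 ± 0.437. Ms4a1 was at 1.43, 0.3 and 0.291 CPM in controls and between 0.29 and 0.597 CPM in Lmna ADKO livers, and Cd79a at 3.99, 1.3 and 1.86 CPM in controls and between 1.1 and 2.67 CPM in Lmna ADKO livers. Without control FGF21 library 1, 3 of 9 markers were below 0, and the log2 fold changes of Ighm, Ms4a1 and Cd79a were 0.14 ± 0.395, 0.48 ± 0.543 and 0.13 ± 0.345.

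Cd3g, Nkg7 and Klrb1c were below 0 in that comparison with and without the library. The values of Cd3g were 1.62, 1.45 and 1.46 CPM in FGF21-treated controls and ran from 0.387 over 1.03 to 1.59 CPM in FGF21-treated Lmna ADKO livers, 6 of 8 below all 3 controls. Its log2 fold change was -0.49 ± 0.339, or -0.44 ± 0.403 without control library 1. Without that library, Nkg7 was at -0.21 ± 0.405 and Klrb1c at -0.36 ± 0.402. The cytotoxic granule genes had wide overlap here. Nkg7 was at 2.28, 1.65 and 3.32 CPM in controls and from 1.24 over 1.85 to 4.58 CPM in Lmna ADKO livers, giving a log2 fold change of -0.17 ± 0.341. For Gzma, the controls had 1.57, 1.1 and 1.63 CPM and Lmna ADKO livers from 0.619 over 1.36 to 2.94 CPM, a log2 fold change of -0.05 ± 0.369. Cd3e, Cd8a and Klrb1c were at -0.14 ± 0.328, 0.06 ± 0.417 and -0.22 ± 0.347.

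Of the 102 other lymphocyte genes, 2 were called lower with FGF21 and 0 higher, 1.96% beside 2.88% of all genes, with a median log2 fold change of -0.33. At an unadjusted p under 0.05 in edgeR were 15, beside 4063 of all 23972 genes. DESeq2 called 3, and its share over all genes is not given here. Thy1, a surface protein of T cells and of some stromal cells, fell by 0.73 ± 0.212 (edgeR adjusted p = 0.0487), from 3.86 ± 0.877 CPM in controls (n = 3) to 2.33 ± 0.503 in Lmna ADKO livers (n = 8). Cd37, a tetraspanin of B cells and other leukocytes, fell by 0.81 ± 0.229 (adjusted p = 0.0409). Leaving out control library 1 or 3 or Lmna ADKO library 2, 3, 4, 5 or 8 ended the call of Thy1 (adjusted p from 0.0624 to 0.198), and leaving out control library 1 or 3 or Lmna ADKO library 1, 3, 4, 5, 6 or 8 that of Cd37 (adjusted p from 0.0502 to 0.331). Both also lost their calls with the digits covariate (edgeR adjusted p = 0.0911 for Thy1 and 0.0579 for Cd37) and when only the groups compared were fitted (0.126 and 0.108). The same held without the 3 libraries that stood apart (0.136 and 0.117) and among animals with 4 digits (0.278 and 0.338). S1pr5 fell with FGF21 as it did with vehicle, from 7.03, 7.29 and 8.44 CPM in control libraries 1, 2 and 3 to between 1.06 and 4.3 CPM without overlap, by 1.51 ± 0.332 on the log2 scale (edgeR adjusted p = 0.00963), and it lost its call without control library 3 (adjusted p = 0.0659), without the 3 libraries that stood apart (0.0837) and among animals with 4 digits alone (0.0988). It was the 1 called gene of the 21 chemokine and receptor genes, beside 0 of 19 cytokine genes and 0 of 10 leukocyte genes, of which 3 and 1 had an unadjusted p under 0.05. Igha, Ccl5, Laptm5 and Ltbr, each the highest of its list, were at -0.37 ± 0.453, 0.15 ± 0.441, 0.05 ± 0.133 and -0.04 ± 0.109 (adjusted p = 0.722, 0.909, 0.905 and 0.887).

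FGF21 was next compared with vehicle within each genotype. In Lmna ADKO livers, 7 of 9 markers were higher with FGF21, with a median log2 fold change of 0.45, and 0 were called, beside 0% of all genes. At an unadjusted p under 0.05 were 1608 of all genes. Nkg7 had the largest value, 0.93 ± 0.289, as all 8 FGF21-treated livers lay above the vehicle median of 1 CPM and 3 above every vehicle-treated one. Gzma had 0.83 ± 0.309, with 5 of 8 FGF21-treated livers above all 6 vehicle-treated ones. Ighm was at 0.51 ± 0.379, Cd8a at 0.47 ± 0.336, Cd3e at 0.45 ± 0.271, Cd3g at 0.32 ± 0.286 and Klrb1c at 0.12 ± 0.281, while Cd79a and Ms4a1 were at -0.04 ± 0.253 and -0.03 ± 0.388. Without Lmna ADKO FGF21 library 7, the highest for Nkg7 at 4.58 CPM and for Gzma at 2.94 CPM and 1 of the 3 libraries with a steep length slope, the values were 0.69 for Nkg7 and 0.60 for Gzma. Without Lmna ADKO vehicle library 1, the median was 0.65, with Nkg7 at 1.21, Cd8a at 0.77 and Cd3g at 0.65. Within animals with 4 digits, 5 with vehicle and 4 with FGF21, the median was 0.78, with Nkg7 at 1.48, Gzma at 1.23, Cd8a at 0.94 and Cd3g at 0.92, and 0 were called. The comparison shares its vehicle-treated Lmna ADKO livers with the first.

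In controls, 7 of 9 markers were above 0 with FGF21, with a median of 0.08, and 0 were called, beside 0.0542% of all genes. Ighm had a log2 fold change of 1.54 ± 0.448, which was 0.15 ± 0.395 without control FGF21 library 1. Ms4a1 moved from -0.04 ± 0.458 to -1.24 ± 0.542 and Cd79a from 0.08 ± 0.314 to -0.52 ± 0.352 when that library was left out. Nkg7 and Gzma were at 0.26 ± 0.348 and 0.02 ± 0.376. Of the 102 other lymphocyte genes, edgeR called 0 in either genotype and DESeq2 0. At an unadjusted p under 0.05 in edgeR were 11 in controls and 5 in Lmna ADKO livers, beside 1476 and 1608 of all 23972 genes. The median log2 fold changes were 0.22 and 0.2. Zap70, Cd74, Igha, Ccl5 and Cxcl12, the most abundant of their lists, had log2 fold changes in Lmna ADKO livers of 0.43 ± 0.257, 0.2 ± 0.226, 0.63 ± 0.375, 0.88 ± 0.36 and 0.16 ± 0.131 (edgeR adjusted p = 0.725, 0.857, 0.725, 0.704 and 0.781).

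Whether the FGF21 difference itself differed between genotypes was tested as an interaction. None of the 9 markers and none of the 102 other genes was called by edgeR, beside 0.00417% of all genes, or by DESeq2. In edgeR, 7 of the 102 had an unadjusted p under 0.05, beside 1165 of all 23972 genes. The interaction, as the effect in Lmna ADKO livers minus that in controls, was 0.81 ± 0.489 for Gzma, 0.67 ± 0.456 for Nkg7 and 0.55 ± 0.431 for Cd3e on the log2 scale, and -1.02 ± 0.592 for Ighm, which became 0.36 ± 0.485 without control FGF21 library 1.

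Control FGF21 library 1 was examined further, with genes chosen after its values were seen. It held 1551 counts of Ighm, while the other 23 libraries held 155 to 531. Ighv11-2, a heavy-chain variable segment, had 34 counts there and at most 4 elsewhere, and Igkv14-126, a kappa variable segment, had 40 counts there and at most 9 elsewhere. This heavy and light segment pair is known from the antibodies of B-1a cells, the IgM-producing B cells of the body cavities. Variable segments resemble each other, so reads may have been split among them. Of the other B lineage genes, Ms4a1 at 1.43 CPM and Cd79a at 3.99 CPM were the highest of all 24 libraries, beside medians of 0.464 and 1.86 CPM in the others. Ighd, which mature follicular B cells express, ranked 13 of 24, Igkc, the kappa constant region, ranked 5 and Igha ranked 17. Cd3e, Cd3g and Cd8a ranked 2, 3 and 4. The same library held 68 counts of Upk3b, a mesothelial gene, against 0 to 32 elsewhere, and the only counts of Glycam1, a mucin of lymph node vessels, and of Lep, the fat-cell hormone leptin, 12 and 4. Adipoq, the gene of adiponectin, had 9 counts there and up to 13 elsewhere. The part of other tissue in these values was not tested.

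**Figure D4:**
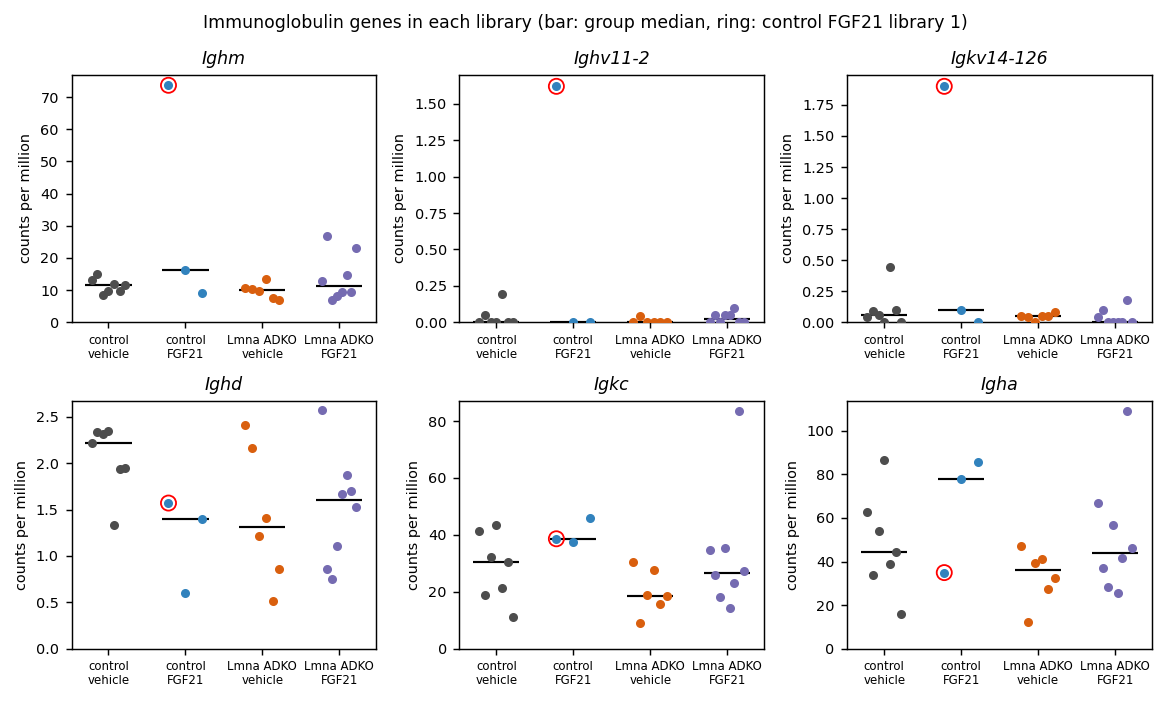
Immunoglobulin genes in CPM on linear axes, 1 point per liver, with a bar at each group's median and a red ring around control FGF21 library 1. The ringed liver is highest for Ighm at 73.7, Ighv11-2 at 1.62 and Igkv14-126 at 1.9 CPM, and lies within the other livers for Ighd, Igkc and Igha.

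Markers were then compared with each other from liver to liver, after the mean of each group was subtracted from log2 CPM, over 24 libraries. Of the 36 pairs, 34 had a Pearson r above 0, with a median of 0.37 and a range from -0.19 to 0.71, and p-values were adjusted over 45 relations with 100000 permutations within groups. Nkg7 and Gzma had r = 0.71 (adjusted permutation p = 0.00292) and rho = 0.74 (adjusted p = 0.0045), and r was 0.6 without the 2 livers farthest from the median. Within the B lineage, Cd79a and Ms4a1 had r = 0.71 (adjusted permutation p = 0.0114) and rho = 0.64 (adjusted p = 0.0517), and Ms4a1 and Ighm r = 0.67 (adjusted permutation p = 0.0114) and rho = 0.65 (adjusted p = 0.0372), with 0.62 and 0.58 without the farthest 2. Within T cells, Cd3g and Cd8a had r = 0.59 (adjusted permutation p = 0.00292) and rho = 0.48 (adjusted p = 0.0607), and r = 0.44 without the farthest 2. Across lineages, Cd8a and Nkg7 had r = 0.61 (adjusted permutation p = 0.0114) and rho = 0.64 (adjusted p = 0.0372), and r = 0.54 without the farthest 2. Klrb1c followed neither Nkg7 (r = 0.26, adjusted permutation p = 0.398, rho = 0.11, adjusted p = 0.778) nor Gzma (r = 0.37, adjusted permutation p = 0.2, rho = 0.19, adjusted p = 0.586) past this threshold. The genes share libraries and have few counts. Of the genes called with vehicle, Ctsw and Cd160 had r = 0.51 and 0.52 with Gzma (adjusted permutation p = 0.102 and 0.0517), with rho of 0.26 and 0.41 (adjusted p = 0.455 and 0.159).

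**Figure D5:**
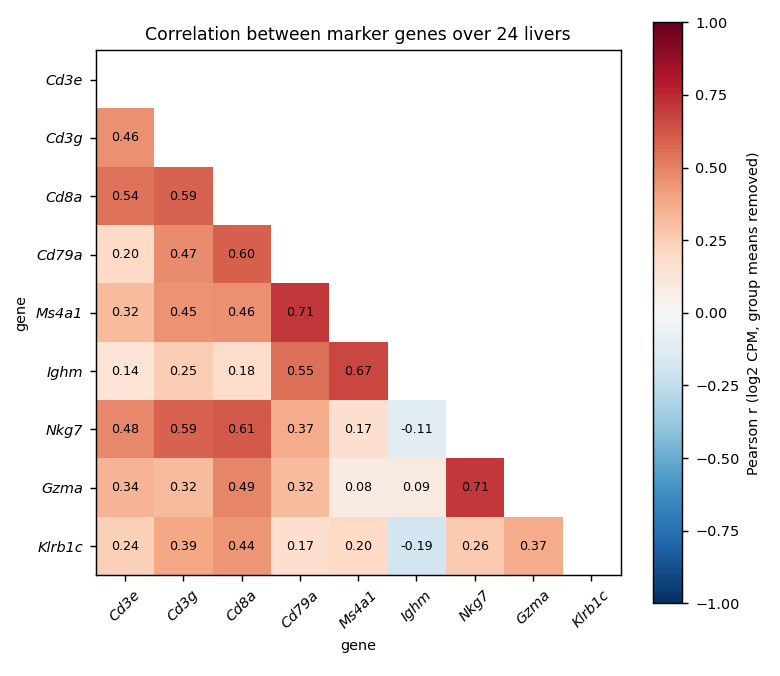
Pearson r of log2 CPM between each pair of the 9 markers over 24 livers, with group means removed, written in each cell and coloured from -1 to 1. The highest values, 0.71, are those of Nkg7 with Gzma and Cd79a with Ms4a1.

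The genes most like a marker were sought by the same r among those whose mean log2 CPM reached 0, as a description. Cd79a was followed most closely by Cd79b, its partner in the B cell receptor, at 0.82 over 12491 genes, and Mmp9, Ints6 and Stx11 were among the next at 0.66 to 0.7. For Cd3e, Ifi208, Pstpip1, Ms4a6c and Elmo1 were among the first 5 at 0.65 to 0.72, and for Gzma Kdelc1, Taf12, Ifi207 and Serping1 at 0.74 to 0.78, none of these a listed lymphocyte gene. Among the 50 most like Cd79a were 6 of the 35 listed lymphocyte genes searched, among those most like Gzma 5 of 35 and among those most like Cd3e 3 of 36.

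Some markers of other cells were called between genotypes in the same livers, beside 8.48% of all genes with vehicle. Their part in the lymphocyte values was not tested. With vehicle, 3 of 10 hepatocyte genes were called lower, and the list summed to between 90219 and 152755 CPM in controls and between 76710 and 114273 CPM in Lmna ADKO livers. Of 15 Kupffer cell and macrophage genes, 1 was called, Ccr2, a monocyte receptor, higher by 1.19 ± 0.311 on the log2 scale (edgeR adjusted p = 0.00907), and the list summed to between 978.5 and 1437 CPM in controls and between 768 and 1289 CPM in Lmna ADKO livers. Of 7 dendritic cell genes, 1 was called, Itgax, higher by 1.1 ± 0.293 (adjusted p = 0.011), with sums of 8.513 to 14.2 and 9.738 to 19.08 CPM. Of 7 erythroid genes, 1 was called, Alas2, higher by 1.22 ± 0.343 (adjusted p = 0.0183), and the sum, led by Hbb-bs, ran from 283.2 to 2037 CPM in controls and from 709.4 to 3760 CPM in Lmna ADKO livers, a several-fold spread within each group. Of 6 sinusoidal endothelial genes, 1 was called, Lyve1, higher, with sums of 254.2 to 340.4 and 233.7 to 287.3 CPM. Neutrophil, platelet and adipocyte lists gave 0 calls of 11, 5 and 5, with 1, 0 and 1 at an unadjusted p under 0.05 in edgeR, and sums of 5.752 to 29.22, 3.427 to 5.49 and 0.04537 to 2.952 CPM in controls and of 10 to 17.54, 3.701 to 4.443 and 1.196 to 1.802 CPM in Lmna ADKO livers. Lep was at 0 in both vehicle groups. Of 4 exocrine pancreas genes, Cela2a was called lower, at sums of at most 0.4873 CPM, and Prss2 was at 0 in both vehicle groups.

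With FGF21, the erythroid sum ran from 655.7 to 3149 CPM in controls and from 1203 to 7475 CPM in Lmna ADKO livers, beside 709.4 to 3760 CPM in vehicle-treated Lmna ADKO livers. The platelet sum reached 7.94 CPM in FGF21-treated controls and 18.26 CPM in FGF21-treated Lmna ADKO livers. In these livers against vehicle-treated ones, 4 of 7 erythroid and 4 of 5 platelet genes had an unadjusted p under 0.05 and 0 were called by edgeR. The part of blood in the higher Nkg7 and Gzma values of FGF21-treated Lmna ADKO livers was not tested. Between genotypes with FGF21, 2 of 10 hepatocyte genes were called lower and 1 of 6 sinusoidal genes higher, beside 2.88% of all genes. In the Kupffer cell, neutrophil, dendritic, erythroid, platelet, adipocyte and pancreas lists 0 were called, and 2, 4, 0, 1, 0, 4 and 0 genes had an unadjusted p under 0.05.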

How the data were processed

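Poly(A) RNA of 24 mouse livers was sequenced as strand-marked libraries. Per the labels and the study's methods, the authors trimmed reads (cutadapt 4.8), checked them (FastQC 0.11.8), aligned them to GRCm38 (STAR 2.7.8a) and quantified Ensembl genes (RSEM 1.3.3), and they deposited whole-number counts per gene, leaving out genes at 0 in all samples. Whether these counts are rounded estimates, and the strand setting, are not given in the sources used here. Every column of values had a sample (0 without one).

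The counts of 23972 genes were fitted in 4 groups with edgeR 4.0.16 (R 4.3.3, TMM, robust quasi-likelihood test, Benjamini-Hochberg adjustment over all genes). A gene was called at an adjusted p under 0.05 and a fold change above 1.5, or the adjusted p alone for the interaction. Standard errors are the log2 fold change over the square root of F, and SDs are of CPM. Alternatives were DESeq2 1.42.0, other scalings, filters, calls by the adjusted p alone, covariates and left-out libraries. A fit of the libraries whose animal number has 4 digits was added after the data were seen. The scripts were tested on simulated data. Libraries held 19863304 to 21510054 counts, and genes of few counts have wide intervals.

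The 9 markers and the lists were chosen with earlier results of these data known. Beyond the markers, each list names up to 4 called genes with the largest change and a mean log2 CPM of at least -1, or else its most abundant gene, and further genes were named whatever their values in vehicle-treated mice. Some genes that these rules name are not reported here.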

Additional observations from a re-analysis of the deposited data

Results flagged for a closer look

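Of 27 sets of marker values (9 markers in the 3 groups of 6 to 8 libraries), 4 held a library whose gap to its nearest neighbour was large for the range of its group, by Dixon's 95% criterion, which chance exceeds in about 1 of 20 sets. Cd3g was at 1.77 CPM in control vehicle library 1, and the gap was 0.648 of the range. Cd8a was at 2.78 CPM in Lmna ADKO vehicle library 1, with a gap of 0.873 of the range. In Lmna ADKO FGF21 library 7, Nkg7 was at 4.58 CPM and Gzma at 2.94 CPM, with gaps of 0.621 and 0.527. That library also had the steepest slope of level on gene length, -0.331, and the part of this slope in the 2 values was not tested.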

How the results depend on the processing

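Of the 102 lymphocyte genes, edgeR called 9 between genotypes with vehicle, 3 with the digits of the animal number as covariate, 4 to 11 when 1 library was left out, with 5 without control library 6 and 4 without Lmna ADKO library 3, and 0 in a fit of the 13 libraries with 4 digits, chosen after the data were seen, in which 1 control is assumed to vary like the other groups. With FGF21 it called 2, but 0 when only the groups compared were fitted, 1 with the digits covariate, 0 among animals with 4 digits, 1 without the 3 libraries that stood apart, and 0 to 5 when 1 library was left out. The gene called with the digits covariate, or without those 3 libraries, was neither Thy1 nor Cd37, the 2 called in the main fit. The 5 came without Lmna ADKO library 7. The shares of all genes called with the digits covariate, with only the groups compared or with libraries left out are not given here. The changes in these numbers are therefore not a result about lymphocyte genes. The counts for FGF21 against vehicle and for the interaction were 0 in every alternative run. The cause was not tested. Apart from the added fit, the fold changes of the 9 markers had the opposite sign in 89 of 972 values and a call in 18. Those of the other genes named lost a call in 45 of 1115 values, gained one in 3, and had the opposite sign in 0 of those with a call. The 9 markers were all below 0 with vehicle in 19 of 20 alternatives, with Cd8a the exception at 0.11 without control library 1, and in the added fit 6 were. No paired analysis was possible because the animal numbers are not shared between groups. Depth left 8 of the 9 markers with 3 to 84 counts per library, a limit on the precision of their fold changes.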
